A study of Homo sapiens with 2 samples.

Results

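The lysosomal genes described here are 42 listed genes that encode the enzymes of the lysosome, the proteins of its membrane, its proton pump and TFEB, a transcription factor of lysosomal genes. The rule of the list is known function and uses no measured value, although the list was drawn up with earlier results of these data known. A gene counted as measured with 50 or more unique molecular identifiers (UMIs, tags that mark 1 captured RNA molecule each) over both libraries. Of the 42 genes, 39 were measured, among 12128 measured genes of 36601 in the matrices. The measured members were 7 of 8 cathepsins, 11 of 12 other hydrolases and their cofactors, 6 of 6 membrane proteins, 14 of 15 subunits of the proton pump, and TFEB. The members not measured were CTSL with 0 UMIs in either library, LGMN with 20 UMIs in control and 16 in SP11, and ATP6V0A1 with 3 and 2 UMIs. The measured member nearest the threshold was CD68 with 204 UMIs in all, and the nearest one outside it was LGMN with 36.

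Single-cell RNA-seq was performed in 1 library of untreated cells (control) and 1 library of cells that had received SP11 for 48 h at 0.8 µM. The labels give both as MOLT4, a cell line from a leukemia of immature T cells, and SP11 is a small-molecule HSP90 inhibitor, HSP90 being a chaperone on which many kinases and transcription factors depend. The comparison asks which transcripts differ once HSP90 is inhibited. With 1 library per group there is no replicate check, and no test between groups could be run, so each difference below is one between libraries and not between conditions.

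The lysosome is the acidic compartment in which cells degrade proteins, lipids and glycans that arrive by endocytosis and autophagy. Cathepsins and other hydrolases work in its lumen at low pH, and the V-ATPase keeps that pH low by pumping protons across the membrane. Its cytosolic V1 sector splits ATP, and its V0 sector in the membrane carries the protons. TFEB and its relatives bind a short palindrome in the promoters of many of these genes, and myeloid cells that ingest material are known for high levels of them.

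After filtering, 1053 of 1076 control barcodes and 852 of 864 SP11 barcodes were kept, with 19375163 and 9498802 UMIs. The median kept cell held 17711 UMIs in control and 10488.5 in SP11, with a median mitochondrial share of 8.94% and 5.51%. The libraries shared 109 kept barcode sequences, and the results without them are given beside the counts. Of 20 T-lineage markers, 11 in control and 13 in SP11 were at 0, including CD3D, CD3G, CD7, CD8A, CD8B, TRBC1, TRBC2, BCL11B and DNTT in both, and their summed level was 3.92 CPM (the share of all UMIs of a library, on the usual CPM scale) in control and 2.11 CPM in SP11. The 19 monocyte or macrophage markers summed to 357 CPM in the control and 1197 CPM in the SP11 library, with 5 and 6 of them at 10 CPM or more and MRC1 at 0 in both. The 9 granulocyte precursor markers summed to 2302 and 1068 CPM. The label MOLT4 therefore did not match the defining T-lineage markers in either library.

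Across all 12128 measured genes the median log2 ratio of SP11 to control CPM was -0.35, so the typical gene took a smaller share of the SP11 library. The lysosomal genes lay above that, with a median log2 ratio of 0.23 over the 39 measured members. By CPM, 8 of 39 members (20.5%) were at least 1.5-fold higher in SP11, a size reached by 10.7% of all measured genes, and 3 of 39 (7.69%) were at least 1.5-fold lower, a size reached by 38.4%. The other 28 members lay within 1.5-fold. Relative to the median gene, the split was 19 members at least 1.5-fold higher and 1 lower, against 22.5% and 24.3% of all measured genes. All 42 listed members together took 4939 CPM of the control library and 6047 CPM of the SP11 library. The log2 ratio of these sums was 0.29 (95% counting interval 0.28 to 0.31). CTSD (1195 and 1618 CPM) and ATP6V0B (255 and 629.7 CPM) carried most of that difference, so the sum does not describe a shift of every member. Without the barcodes found in both libraries, 7 members were at least 1.5-fold higher, 3 were lower and the median was 0.23.

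The members did not differ in 1 direction. The 8 at least 1.5-fold higher were 3 cathepsins (CTSA, CTSH and CTSB), the hydrolase GLA and 4 pump subunits (ATP6V0B, ATP6V0D1, ATP6V0E1 and ATP6V1B2). The 3 at least 1.5-fold lower came from the same classes, the cathepsin CTSZ, the hydrolase ASAH1 and the pump subunit ATP6V0C. With TMM scaling only ATP6V0C stayed past the lower mark (-0.64), with CTSZ at -0.55 and ASAH1 just inside it at -0.58. Of the 39 members, 20 had a counting interval wholly above 0, where 22.9% of all measured genes did, and 12 had one wholly below 0, where 53.5% did. Against the median gene, 30 members had an interval wholly above it and 4 below it, where 37.4% and 35.2% of all measured genes did. All intervals cover counting error only.

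**Figure D1:**
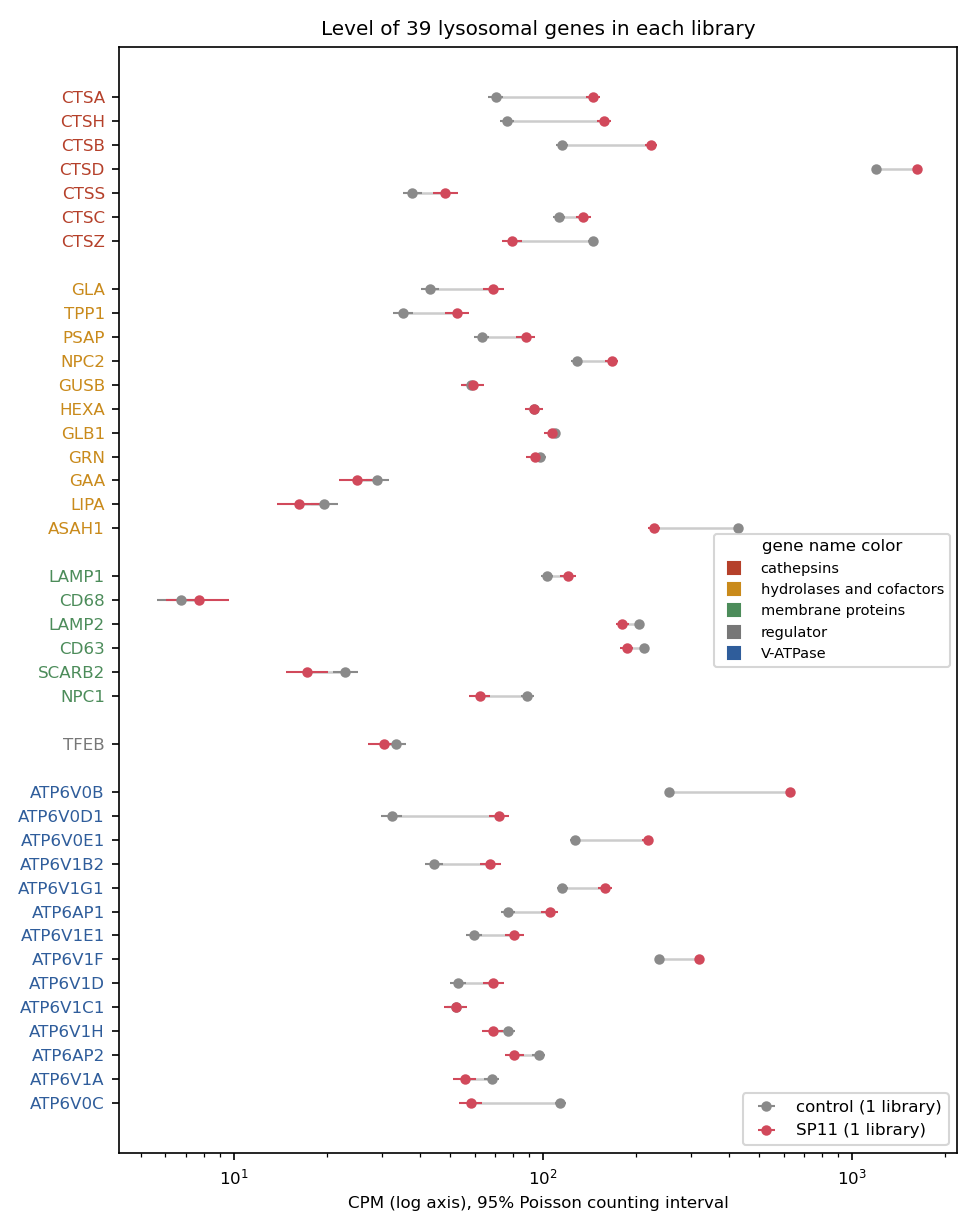
Level of each of the 39 measured members in the control library (grey) and the SP11 library (red), in CPM on a log axis, with 95% Poisson counting intervals. Gene names are colored by class, and the grey line joins the libraries: ATP6V0B runs from 255 to 629.7 CPM and ASAH1 from 427 to 228 CPM.

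Many lysosomal promoters are known to hold the palindrome CACGTG, the core of a longer element that TFEB and its relatives bind, so the promoters were read to show which members carry it. RefSeq promoters (assembly GRCh38.p14, 250 bases before to 50 after the start) were matched for 30 of the 42 members. The motifs searched were CACGTG, TCACGTGA, and TCACGTGA with G before it and C after it (the full element). Each is its own reverse complement, so 1 search covers both strands, and each longer element contains the shorter ones. CACGTG was found in 8 of 30 member promoters (26.7%) and in 7.43% of 27305 RefSeq promoters. TCACGTGA was found in 5 (16.7%) against 1.04%, and the full element in 2 (6.67%) against 0.381%. Among promoters of measured genes only, 10.7% held CACGTG, 2.10% TCACGTGA and 0.857% the full element. The 8 windows below run 5′ to 3′ on the strand of the gene, with the longest matching element in capitals.
CTSA (chr20:45891299-45891326, plus strand, TCACGTGA 26 bases before the start): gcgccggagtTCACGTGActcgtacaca
CTSD (chr11:1763959-1763984, minus strand, CACGTG 47 bases before the start): cggccgcgccCACGTGaccggtccgg
GAA (chr17:80101538-80101567, plus strand, full element 33 bases before the start): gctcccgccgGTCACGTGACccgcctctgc
LAMP1 (chr13:113297200-113297227, plus strand, TCACGTGA 29 bases before the start): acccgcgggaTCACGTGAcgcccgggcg
CD63 (chr12:55729174-55729199, minus strand, CACGTG 180 bases before the start): gggtaggggcCACGTGgccctggccg
ATP6V0B (chr1:43974911-43974936, plus strand, CACGTG 39 bases before the start): accggcgcatCACGTGggcgagttag
ATP6V0D1 (chr16:67481200-67481227, minus strand, TCACGTGA 60 bases before the start): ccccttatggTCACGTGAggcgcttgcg
ATP6V1G1 (chr9:114587699-114587728, plus strand, full element 60 bases before the start): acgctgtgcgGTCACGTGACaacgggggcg

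The 8 measured members with CACGTG in these windows had a median log2 ratio of 0.45 and ranged from -0.22 (GAA) to 1.30 (ATP6V0B), with 3 at least 1.5-fold higher and none lower. The 20 measured members with a promoter that lacked it had a median of 0.10, with 2 higher and 2 lower. The upper mark was passed by 10.7% of all measured genes and the lower one by 38.4%. This split covers only the 28 measured members with a matched promoter. Members past the marks that it leaves out are CTSB (0.95), ATP6V0E1 (0.78), ATP6V1B2 (0.60) and, on the lower side, ASAH1 (-0.90). Over all measured genes, the medians were -0.22 for 976 genes with CACGTG and -0.31 for 8130 without. The members with the full element, GAA and ATP6V1G1, had log2 ratios of -0.22 and 0.46. A match describes the letters of the window and not binding by a factor.

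The cathepsins as a class were higher in the SP11 library, with a median log2 ratio of 0.44 and summed levels of 1752 CPM in the control and 2405 CPM in the SP11 library (log2 ratio of the sums 0.46). Of the 7 measured, 3 (42.9%) were at least 1.5-fold higher and 1 (14.3%) was lower, against 10.7% and 38.4% of all measured genes. The levels of CTSA, a serine carboxypeptidase that also holds beta-galactosidase and a sialidase in a protected complex, were 70.2 CPM in the control and 145 CPM in the SP11 library, a log2 ratio of 1.04 (0.94 to 1.15). CTSH, a cysteine protease that trims amino termini, was at 76.5 and 157 CPM, also a log2 ratio of 1.04 (0.93 to 1.14). Both genes thus stood about as far apart between the libraries, with Poisson intervals that did not overlap. CTSB, a widely expressed cysteine protease, was at 115 CPM in the control and 223 CPM in the SP11 library, a log2 ratio of 0.95 (0.87 to 1.04). CTSD, the main aspartic protease of the lysosome, had the most UMIs of any member and was at 1195 and 1618 CPM, a log2 ratio of 0.44 (0.41 to 0.47). Its difference was under 1.5-fold and far larger than its counting error. CTSD carried most of the difference between the cathepsin sums.

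Of the remaining cathepsins, CTSS and CTSC were higher by less than 1.5-fold and CTSZ was lower. CTSS, which cleaves the invariant chain in antigen-presenting cells, was at 37.8 CPM in the control and 48.2 CPM in the SP11 library, a log2 ratio of 0.35 (0.18 to 0.52). CTSC, the dipeptidyl peptidase that activates the serine proteases of granulocyte granules, was at 113 and 135 CPM, a log2 ratio of 0.26 (0.16 to 0.36). CTSZ, a cysteine carboxypeptidase, was at 145 CPM in the control and 79.3 CPM in the SP11 library, a log2 ratio of -0.87 (-0.99 to -0.76). CTSZ was the only measured cathepsin below the median gene as well as below 0. CTSZ overlaps NELFCD on the opposite strand, whose UMIs came to 39.03% of those of CTSZ (1023 in control and 368 in SP11), and the sources used here do not say if the counting used strand. For the measured cysteine cathepsins alone, the sums were 487 and 643 CPM and the median log2 ratio was 0.35.

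The other hydrolases and cofactors showed no common direction by CPM. Their median log2 ratio was -0.00 over 11 measured members, or 0.32 with TMM scaling. All 12 listed summed to 1105 CPM in the control and 1001 CPM in the SP11 library. ASAH1 held 8276 of the 21416 control UMIs and 2168 of the 9504 SP11 UMIs of this class. Its difference (427 and 228 CPM) was larger than that of the class sum, so the lower SP11 sum rested on this gene. At the upper end, GLA (alpha-galactosidase A, which removes galactose from glycolipids) was at 43.0 CPM in the control and 69.0 CPM in the SP11 library, a log2 ratio of 0.68 (0.53 to 0.83). GLA overlaps the ribosomal protein gene RPL36A, which held 36220 UMIs in control and 26390 in SP11 on the opposite strand, against 834 and 655 of GLA, so its value is uncertain. TPP1, a tripeptidyl peptidase, was at 35.2 and 52.5 CPM, which is 1.49-fold and just under the mark. PSAP, the precursor of the saposins that present lipids to hydrolases, was at 63.3 and 87.8 CPM, a log2 ratio of 0.47 (0.34 to 0.60).

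At the lower end stood ASAH1, acid ceramidase, which splits ceramide into sphingosine and a fatty acid. ASAH1 was at 427 CPM in the control and 228 CPM in the SP11 library, a log2 ratio of -0.90 (-0.97 to -0.84), and it held 8276 control UMIs, so counting error was small. LIPA, the lipase that frees cholesterol from its esters, was at 19.6 and 16.2 CPM, a log2 ratio of -0.27 (-0.55 to -0.00). GAA, which degrades glycogen, was at 29.1 and 24.95 CPM, a log2 ratio of -0.22 (-0.45 to -0.00). The counting intervals of LIPA and GAA reached almost to 0. Both ratios were above the median gene, which their intervals included. The other members were NPC2, a cholesterol carrier of the lumen, with a log2 ratio of 0.37, and GUSB, HEXA, GLB1 and GRN between -0.05 and 0.02 with intervals that included 0. For these last 4, which encode beta-glucuronidase, a beta-hexosaminidase subunit, beta-galactosidase and progranulin, no difference in CPM was detectable at this depth. Their intervals lay above the median gene.

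No membrane protein of the list differed by 1.5-fold in either direction. Their median log2 ratio was -0.19, or 0.14 with TMM scaling, and they summed to 639 CPM in the control and 574 CPM in the SP11 library. LAMP1, an abundant glycoprotein that lines the inner face of the membrane, was at 103 and 121 CPM, a log2 ratio of 0.23 (0.12 to 0.34). LAMP2, its relative with a role in chaperone-mediated autophagy, was at 205 and 181 CPM, a log2 ratio of -0.18 (-0.27 to -0.10). The relatives LAMP1 and LAMP2 thus lay on opposite sides of 0 by CPM, and both were above the median gene. CD63, a tetraspanin of late endosomes, was at 213 and 186 CPM, a log2 ratio of -0.19 (-0.27 to -0.11). CD68, a glycoprotein much used as a macrophage marker, was at 6.76 and 7.69 CPM, a log2 ratio of 0.18 (-0.25 to 0.61). With 131 and 73 UMIs, no difference in CD68 was detectable. SCARB2, an integral protein of the lysosomal membrane, was at 22.9 and 17.3 CPM, a log2 ratio of -0.41 (-0.68 to -0.15). NPC1, which exports cholesterol through the membrane, was at 88.8 and 62.3 CPM, a log2 ratio of -0.51 (-0.65 to -0.38). NPC1 and SCARB2 were the only membrane members with a ratio below the median gene, and the interval of SCARB2 included the median gene.

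The V-ATPase subunits were higher as a group, with a median log2 ratio of 0.43 over 14 measured members. They summed to 1409 CPM in the control and 2036 CPM in the SP11 library (log2 ratio of the sums 0.53, counting interval 0.50 to 0.56). ATP6V0B, described below, carried most of the difference between these sums. The membrane-embedded V0 sector held both the highest and the lowest ratio of all 39 members. ATP6V0B (chr1:43974487-43978295, GENCODE 44 on GRCh38), a proteolipid of the rotating ring, was at 255 CPM in the control and 629.7 CPM in the SP11 library, a log2 ratio of 1.30 (1.25 to 1.36). Its ratio was higher than that of 98.3% of all measured genes. ATP6V0C (chr16:2513952-2520218), another proteolipid of the same ring, was at 114 CPM in the control and 58.3 CPM in the SP11 library, a log2 ratio of -0.96 (-1.10 to -0.83). These ring subunits therefore differed between the libraries in opposite directions, under CPM as under TMM and DESeq2 scaling. The genome holds processed copies of ATP6V0C, and the sources used here do not say how reads that match several copies were counted. ATP6V0D1, which couples the ring to the central stalk, was at 32.4 and 72.0 CPM, a log2 ratio of 1.15 (1.00 to 1.31). ATP6V0E1, a small membrane subunit, was at 127 and 218 CPM, a log2 ratio of 0.78 (0.69 to 0.86). The measured V0 subunits together summed to 528 CPM in the control and 978 CPM in the SP11 library.

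In the V1 sector 1 of 8 subunits (12.5%) was at least 1.5-fold higher, near the 10.7% of all measured genes. None was lower, where 38.4% of all measured genes were. The median log2 ratio was 0.40 and the sums were 708 and 873 CPM. ATP6V1B2, which forms the ATP-binding head with subunit A, was at 44.5 CPM in the control and 67.4 CPM in the SP11 library, a log2 ratio of 0.60 (0.45 to 0.75). ATP6V1A, the catalytic subunit of the same head, was at 68.2 and 55.9 CPM, a log2 ratio of -0.29 (-0.44 to -0.14), or 0.04 with TMM scaling. The head subunits A and B2 thus had counting intervals on opposite sides of 0 by CPM. The stalk subunits lay close together: ATP6V1G1 was at 115 and 158 CPM (log2 ratio 0.46), ATP6V1E1 at 59.7 and 80.6 CPM (0.43), ATP6V1F at 238 and 320.4 CPM (0.43) and ATP6V1D at 53.1 and 69.1 CPM (0.38), with intervals that overlapped one another and lay above 0. ATP6V1D shares its locus with MPP5 on the opposite strand, whose UMIs came to 57.3% of its own. ATP6V1C1, which joins the stalks to the sector, was at 52.1 CPM in both libraries, a log2 ratio of -0.00 (-0.16 to 0.16). ATP6V1H, a regulatory subunit, was at 77.1 and 68.7 CPM, a log2 ratio of -0.17 (-0.30 to -0.03), or 0.16 with TMM scaling.

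The accessory subunits of the pump split as well. ATP6AP1, which helps to assemble V0, was at 76.8 CPM in the control and 105 CPM in the SP11 library, a log2 ratio of 0.45 (0.33 to 0.57). ATP6AP2, also known as the prorenin receptor, was at 96.7 and 80.6 CPM, a log2 ratio of -0.26 (-0.38 to -0.14), or 0.06 with TMM scaling. TFEB itself was at 33.4 CPM in the control and 30.5 CPM in the SP11 library, a log2 ratio of -0.13 (-0.33 to 0.07). No difference in the TFEB transcript was detectable by CPM, and its interval lay above the median gene.

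**Figure D2:**
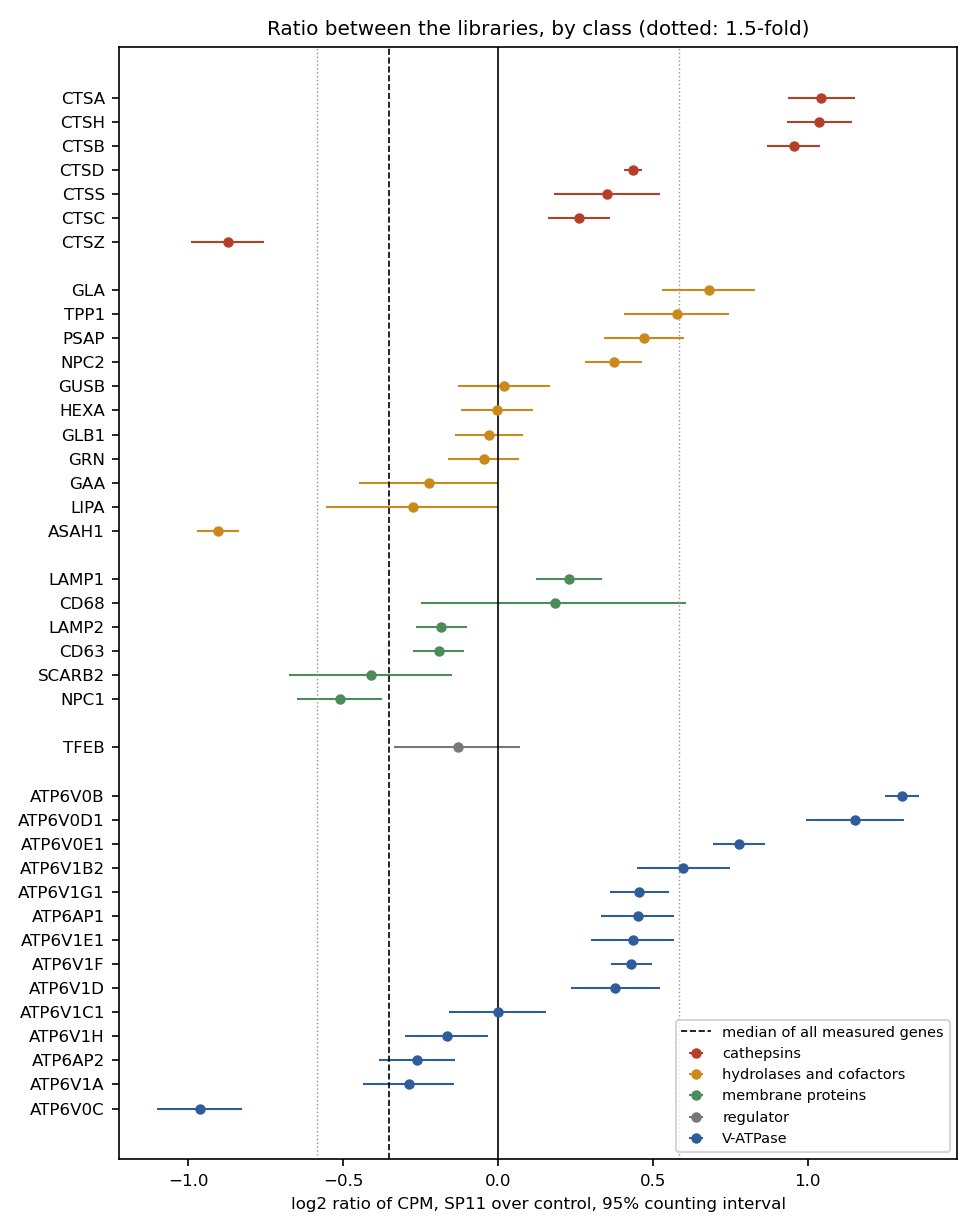
Log2 ratio of SP11 to control CPM for each measured member, colored by class, with 95% counting intervals, the median of all measured genes (dashed, -0.35) and 1.5-fold marks (dotted). Cathepsins and V-ATPase subunits have medians of 0.44 and 0.43, with 6 of 7 and 9 of 14 members above 0. CTSZ, ASAH1 and ATP6V0C stand alone beyond the left mark.

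Other genes of the pathway, taken from lists of 101 genes outside the members, gave a wider spread. Of the 84 measured, 21 were at least 1.5-fold higher and 21 lower by CPM (25% each), against 10.7% and 38.4% of all measured genes. The split relative to the median gene was 37 and 7 (44% and 8.33%), against 22.5% and 24.3% of all measured genes. The median log2 ratio was 0.04. Without the 20 cells of SP11 cluster 5 the counts by CPM were 20 and 23. With the median of genes of like intronic length subtracted (the intron trend, described at the end), 30 were higher and 9 lower with a median of 0.23. On that scale 17.8% and 23% of all measured genes passed these marks. The lower values of long genes below are therefore given on that scale too. Among further V-ATPase subunits, 3 of 6 measured (50%) were higher and 1 (16.7%) was lower, against 10.7% and 38.4% of all measured genes. ATP6V0D2, the form of subunit d known from osteoclasts and macrophages, had 29 UMIs in control and 119 in SP11, or 1.497 and 12.5 CPM, a log2 ratio of 3.07 (2.47 to 3.70). Of the 119 SP11 UMIs, 104 lay in the 20 cells of SP11 cluster 5, a cluster of that library described after the shares of cells, and with those cells left out, an alternative chosen after seeing the data, its log2 ratio was 0.12. TCIRG1, the a3 subunit of the same cell types, was at 8.15 and 20.8 CPM, a log2 ratio of 1.35 (1.05 to 1.66). ATP6V1E2 was lower, at 21.6 and 10.2 CPM (-1.08, or -0.70 with the intron trend subtracted), and ATP6V0A2 was at 26.3 and 21.7 CPM (-0.28, or 0.02). Of 7 factors of V-ATPase assembly, 1 (14.3%) was at least 1.5-fold higher and 2 (28.6%) were lower, near the shares of all measured genes. TMEM199 was the higher one with a log2 ratio of 0.89, followed by VMA21 at 0.39. DMXL1 (-1.22) and WDR7 (-0.93), components of the complex that rejoins V1 and V0, were lower by CPM. With the intron trend subtracted neither passed 1.5-fold, with DMXL1 at -0.38 and WDR7 at 0.08. DMXL2 and ROGDI, of the same complex, were at -0.08 and 0.34 by CPM.

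Among the 21 other hydrolases measured, 6 (28.6%) were at least 1.5-fold higher and 5 (23.8%) lower, against 10.7% and 38.4% of all measured genes. FUCA1, a fucosidase, was at 44.6 CPM in the control and 100.4 CPM in the SP11 library (log2 ratio 1.17). Of its 954 SP11 UMIs, 217 lay in the 20 cells of SP11 cluster 5, and without those cells its log2 ratio was 0.84. MANBA, a mannosidase, was at 113 and 45.8 CPM (-1.30), and GALNS, a sulfatase, was at 21.5 and 10.9 CPM (-0.98). With the intron trend subtracted they were at -0.61 and -0.64. The cystatins, which inhibit cysteine cathepsins, split in pairs. CSTA was at 48.9 and 116 CPM (1.25) and CSTB at 309.5 and 669 CPM (1.11), whereas CST3 was at 475 and 308 CPM (-0.63) and CST7 at 1023 and 686 CPM (-0.58). The inhibitors that act in the cytosol, CSTA and CSTB, were thus higher and the secretory ones lower. Of the cathepsins outside the members, CTSG, a serine protease of granulocyte granules, was at 444 and 321 CPM (-0.47) and CTSO at 2.99 and 1.68 CPM (-0.83).

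Of 5 measured genes that sort enzymes to the lysosome, none was at least 1.5-fold higher and 2 (40%) were lower, close to the 10.7% and 38.4% of all measured genes. IGF2R, the large mannose 6-phosphate receptor, was at 135 CPM in the control and 66.5 CPM in the SP11 library (log2 ratio -1.02, or -0.32 with the intron trend subtracted), and GNPTAB, which builds that tag, was at 27.9 and 16.6 CPM (-0.75, or -0.17), while GNPTG (0.36) and NAGPA (0.31) were within 1.5-fold. Of 14 other membrane proteins, 2 (14.3%) were higher and 5 (35.7%) lower, also close to the shares of all measured genes. The higher ones were LAPTM5 with a log2 ratio of 1.00 and CLN3 with 0.78. The lower ones were led by TPCN1 and SLC38A9 with -0.89 and -0.88 (-0.39 and -0.19 with the intron trend subtracted). Among 12 genes of nutrient sensing at the lysosome, RRAGC (1.29) and LAMTOR1 (0.93) were at the top and RRAGB (-1.45, or -1.11 with the intron trend subtracted) and FNIP1 (-1.13, or -0.44) at the bottom. Of the relatives and opponents of TFEB, TFE3 had a log2 ratio of 0.42, TFEC 0.13, MITF -0.22 (0.96 and 0.61 with the intron trend subtracted) and the repressor ZKSCAN3 -0.64 (-0.53). The autophagosome list had 4 of 9 measured genes (44.4%) past 1.5-fold upward and none downward, against 10.7% and 38.4% of all measured genes. SQSTM1, the cargo receptor p62, was at 94.5 and 281 CPM (1.57) and MAP1LC3B at 32.8 and 62.3 CPM (0.92), while WIPI1 (-0.49) and UVRAG (-0.52) were the lowest by CPM. UVRAG, with 321677 intronic bases, was at 0.50 with the intron trend subtracted and WIPI1 at -0.20.

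To see whether the differences lay in many cells or few, each cell was thinned to 4400 UMIs, which kept 963 control and 769 SP11 cells and left out 90 and 83 shallower ones. The share of cells with at least 1 UMI was higher in SP11 with intervals apart for 11 of 39 members, lower with intervals apart for 7 and overlapping for 21. Over all measured genes the shares were 12.2% higher and 28.9% lower with intervals apart, against 28.2% and 17.9% of the members. ATP6V0B was seen in 64.7% of control cells (95% exact binomial interval 61.6 to 67.7%) and 91.5% of SP11 cells (89.4 to 93.4%). The shares of ATP6V0D1 were 13.7% (11.6 to 16.0%) and 28.1% (24.9 to 31.4%), and those of CTSA were 27.8% (25.02 to 30.8%) and 44.6% (41.1 to 48.2%). ATP6V0C went the other way, with 38.0% (34.9 to 41.2%) and 23.8% (20.8 to 27.0%), as did ASAH1, with 81.2% (78.6 to 83.6%) and 58.9% (55.3 to 62.4%). CTSZ was seen in 45.9% (42.7 to 49.1%) of control cells and 28.1% (24.9 to 31.4%) of SP11 cells. Without thinning, ATP6V0B was seen in 87.4% and 95.3% of cells and ATP6V0C in 78.3% and 44.4%. Neither library held a named cell type that should lack lysosomal genes, so no background share from free RNA could be given.

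Summed by class, the median thinned cell held 7 cathepsin UMIs in control and 10 in SP11, and 6 and 8 V-ATPase UMIs. For hydrolases and cofactors, a class in which ASAH1 held the most UMIs in both libraries, the medians were 5 and 4 UMIs. For membrane proteins they were 3 and 2. All members together gave a median of 21 UMIs (quartiles 18 and 25) in control and 25 UMIs (quartiles 21 and 30) in SP11. The distributions of both libraries overlapped in every class.

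**Figure D3:**
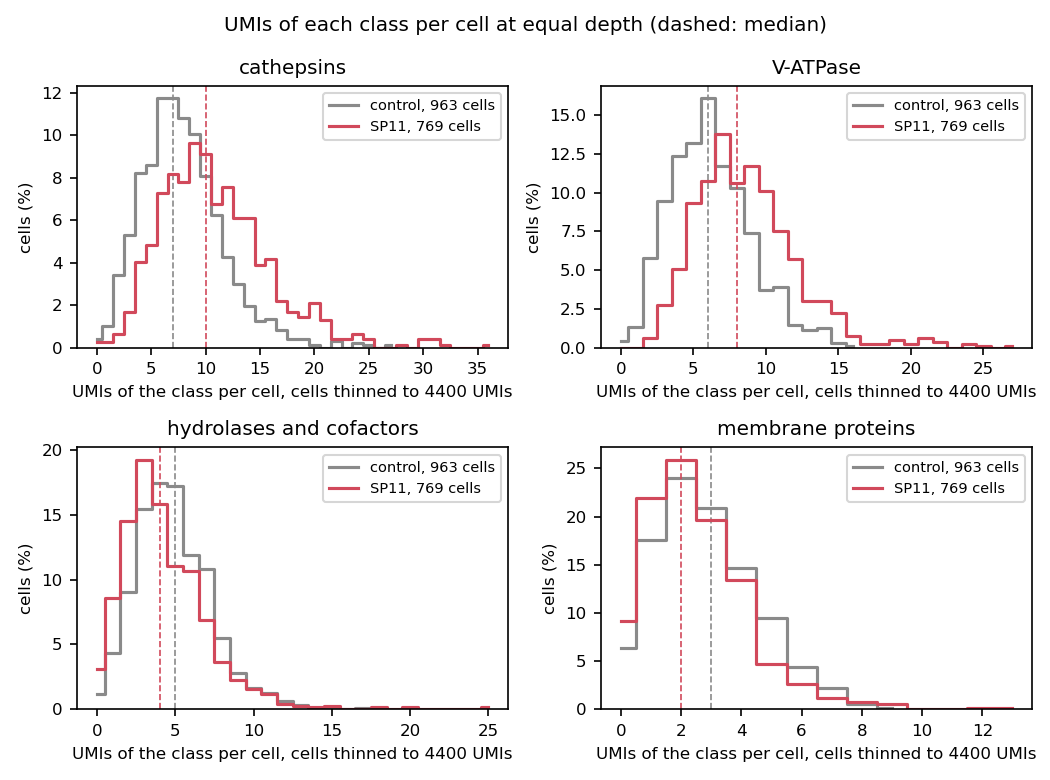
Share of cells (y axis, in percent) by the UMIs of each class per cell (x axis) after thinning to 4400 UMIs, for 963 control cells (grey) and 769 SP11 cells (red), with medians dashed. The SP11 curves of cathepsins and V-ATPase subunits are shifted to the right (medians 7 to 10 and 6 to 8), and those of the other classes slightly to the left.

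Clustering of each library alone gave 6 clusters in each. The members summed to between 4802 and 5257 CPM in the 5 deeper control clusters and to 3370 CPM in control cluster 5, whose 76 cells had a median of 787.5 UMIs. In SP11 clusters 0 to 3 they summed to between 5631 and 6236 CPM, and in the shallow cluster 4 (70 cells) to 5419 CPM. SP11 cluster 5, with 20 cells (2.35%), stood apart at 12751 CPM, and 34 of 39 members were highest there among the SP11 clusters, where 24.1% of all measured genes were. This compares cells that the same genes helped to cluster and is a description only. Of the members, 31 were at least 1.5-fold above their level in the whole SP11 library, where 19% of all measured genes were. CD68 stood at 6.06-fold its library level on 13 UMIs (46.6 CPM, interval 24.8 to 79.7), CTSS at 4.98-fold, GRN at 4.37-fold and PSAP at 4.16-fold. For GUSB and LAMP1, with 13 and 23 UMIs in the cluster, the counting intervals included the library level. The same held for CTSC, GLB1, GAA, LIPA, SCARB2, TFEB and ATP6V0C, of which SCARB2 and TFEB were among the 31.

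The leading genes of SP11 cluster 5 were ATP6V0D2, SLC26A11, TDO2, MMP1, S100A12, C1QA and FABP4, and the monocyte or macrophage markers summed to 7619 CPM there, against 591 to 1854 CPM in SP11 clusters 0 to 3. Within it, 19 of 20 cells were called G1. With these 20 cells left out, an alternative chosen after seeing the data, the member median was 0.17, with 7 members at least 1.5-fold higher and 3 lower, ATP6V1B2 being the 1 no longer past the mark (0.51). The cathepsin and V-ATPase medians were then 0.41 and 0.37. Across the deeper clusters without SP11 cluster 5, 12 of 39 members were higher in every SP11 cluster than in every control cluster, where 11.4% of all measured genes were, and 6 were lower in every one, where 28.7% were. The 12 were CTSA, CTSB, CTSD, CTSH, GLA, TPP1, ATP6V0B, ATP6V0D1, ATP6V0E1, ATP6V1B2, ATP6V1E1 and ATP6V1G1, and the 6 were CTSZ, ASAH1, CD63, SCARB2, ATP6V0C and ATP6AP2. ATP6V0B ranged from 202 to 284 CPM over the control clusters and from 533 to 691 CPM over the SP11 clusters, and ATP6V0C from 103 to 124 CPM and from 54.6 to 63.4 CPM. The monocyte or macrophage markers were also higher in SP11 clusters 0 to 3 than the 278 to 419 CPM of the deeper control clusters, and their part in the result was not tested. Over the whole libraries, 13 of the 19 markers were higher in SP11, 5 were lower and 1 was at 0 in both, and LYZ (241 and 736 CPM), S100A8 (4.95 and 219 CPM) and S100A9 (27.9 and 136 CPM) carried most of the sum. Without these 3 the sums were 82.8 and 106 CPM, and MARCO (22.2 and 6.74 CPM) and ITGAX (9.03 and 2.63 CPM) were lower in SP11.

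**Figure D4:**
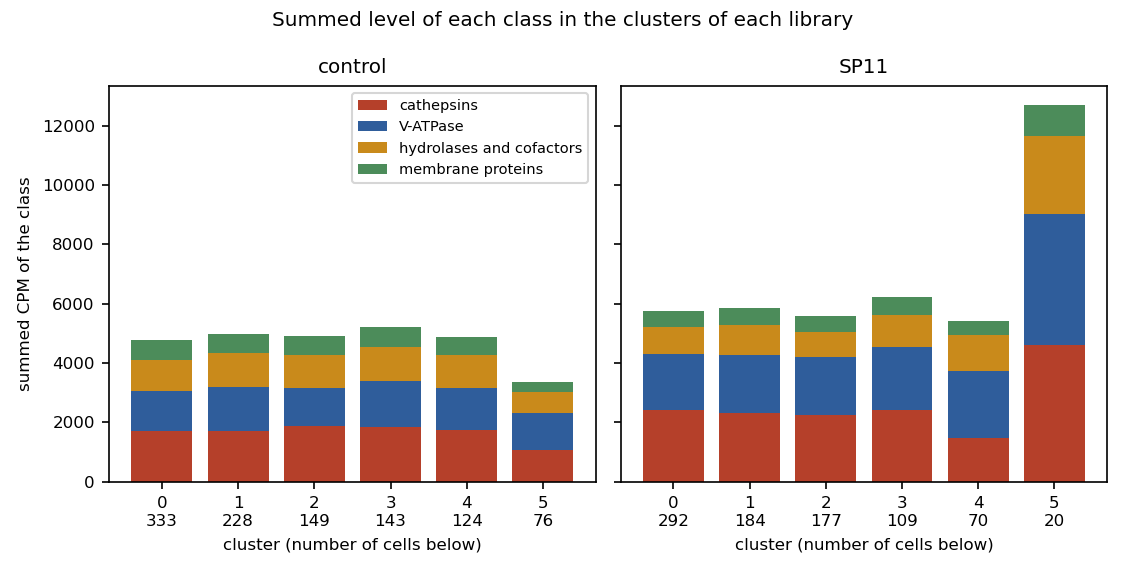
Summed CPM of the 4 classes (stacked bars, TFEB not drawn) in the clusters of each library, with the number of cells under each cluster number. SP11 clusters 0 to 3 reach 5631 to 6236 CPM over all members, and SP11 cluster 5 of 20 cells reaches 12751 CPM.

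All 11 members past 1.5-fold kept their direction in G1, S and G2M cells, and 6 of 8 higher and 3 of 3 lower members passed 1.5-fold in each phase. The phases are parts of the same cells on which these 11 were picked. Kept directions are therefore a description and no separate check. ATP6V0B had log2 ratios of 1.54 in G1, 1.19 in S and 1.24 in G2M cells, and ATP6V0C had -0.69, -0.92 and -1.15. GLA stayed under the mark in S cells (0.53) and ATP6V1B2 in G2M cells (0.32, against 1.05 in G1). Of the 39 members, 29 had their highest ratio in G1, where 33.9% of all measured genes did. Without the 20 cells of SP11 cluster 5 the count was 16 of 39, against 34.8% of all measured genes. In G1 cells alone the member median was 0.38 with 15 members at least 1.5-fold higher and 3 lower, sizes reached by 13.6% and 38.9% of all measured genes there. Without SP11 cluster 5, the G1 median was 0.12 with 8 higher and 3 lower, against 13.3% and 39.1%.

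Over all measured genes the ratio tended to fall with intronic length, from 0.12 in the bin with a median of 1094 intronic bases to -1.02 in the bin with 357856. The bin with a median of 0 intronic bases, which holds CTSA and TPP1, lay off that trend at -0.20. The sources used here do not state whether intronic reads were counted. The members had a median of 17936 intronic bases against 27795.5 for all measured genes. With the median of genes of like intronic length subtracted, the member median was 0.42, with 14 members at least 1.5-fold higher and 3 lower, sizes reached on that scale by 17.8% and 23% of all measured genes. ATP6V0D1, with 35012 intronic bases, stood 1.49 above genes of like length on the log2 scale, and ATP6V0E1, with 50066, stood 1.25 above them. ATP6V0C, with 4851, and CTSZ, with 3169, both stood at -0.98, and NPC1, with 70618, at -0.01.

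**Figure D5:**
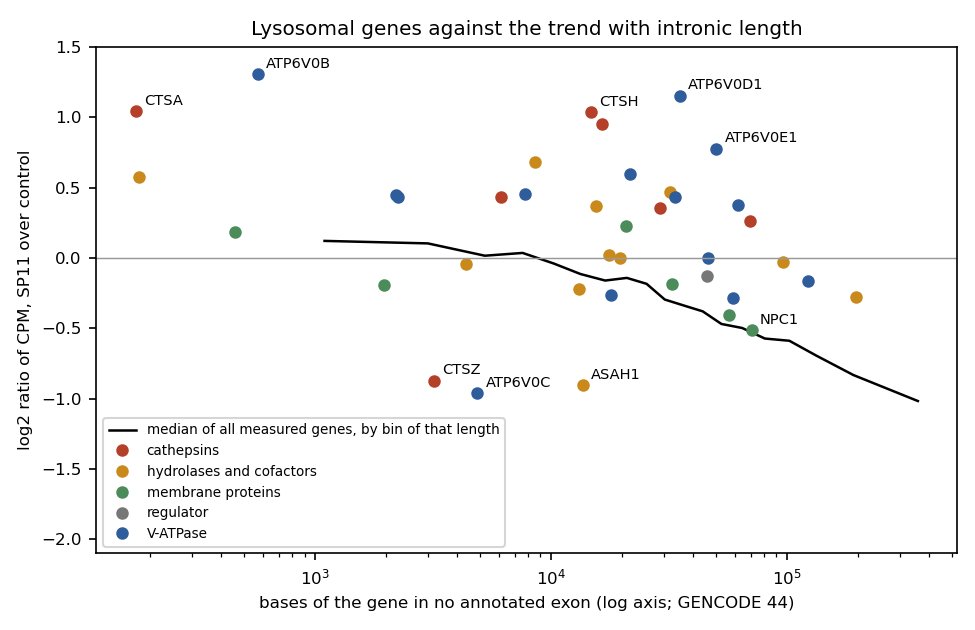
Log2 ratio of SP11 to control CPM of the measured members (points, colored by class) against the bases of each gene in no annotated exon (log axis). The line gives the median of all measured genes in bins of that length, and the bin with a median of 0 is not drawn. ATP6V0D1 and ATP6V0E1 lie 1.49 and 1.25 above the line, and CTSZ and ATP6V0C lie 0.98 under it.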

How the data were processed

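The deposited files hold raw UMI counts per gene and barcode of each library, made with Cell Ranger 7.1.0 per the file headers on GRCh38 (hg38) per the submitters' processing notes. Barcodes were kept with 200 or more genes and no more than 20% mitochondrial UMIs, and Scrublet (scanpy 1.11.5) calls (45 control, 21 SP11) were kept in the main values. UMIs were summed over kept cells and scaled to CPM. Log2 ratios carry an exact (Clopper-Pearson) interval from how the UMIs divide between libraries, CPM an exact Poisson and shares an exact binomial interval (95%, counting error only), with code tested on simulated data. A count of 0 allows up to 3 counts, 0.155 CPM in control and 0.316 CPM in SP11. The 1.5-fold mark (0.58 on the log2 scale) is a size, not a call. Clusters and phases came from Seurat 5.3.0 (R 4.3.3; 2000 variable features, 10 principal components, resolution 0.5) in each library alone, and clusters with a median UMI count under 1/3 of their library's were called shallow. Intronic length, the bases of a gene in no annotated exon, and overlaps came from GENCODE 44 and were compared in 20 bins. Alternatives were edgeR 4.0.16 TMM factors and DESeq2 1.42.0 size factors (scaling only), other totals, filters and cell subsets. Members, lists and the rule for named genes (TFEB, the 3 highest and 3 lowest of each class, every V-ATPase subunit, up to 2 from each end of every other list) were chosen with earlier results of these data known. The mouse experiment was not analysed here. A gene that this rule names is not reported here.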

Additional observations from a re-analysis of the deposited data

How the results depend on the processing

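No paired analysis was possible because each group had 1 library. No member past 1.5-fold by CPM changed sign under any alternative run. The alternatives reuse the same libraries, so this is a description and no separate check. The membrane protein median changed sign under TMM and DESeq2 scaling and with the intron trend subtracted. TMM scaling, which raised the median of all genes by 0.32, gave a member median of 0.55, 19 members higher and 1 lower by 1.5-fold, class medians of 0.76 (cathepsins), 0.32 (hydrolases and cofactors), 0.14 (membrane proteins) and 0.76 (V-ATPase), and 0.62 for the summed level. DESeq2 size factors (shift 0.35) gave 0.58, 19 and 1, 0.79, 0.35, 0.16, 0.78 and 0.64. Under both scalings 12 members close to 0 changed sign. Each scaling adds 1 constant, smaller than the 1.5-fold mark, to every log2 ratio. Members past that mark by CPM therefore could not change sign under them. Totals without mitochondrially encoded genes gave 0.38 for cathepsins and 0.24 for the sum, equal weight for every cell 0.50 and 0.33, and a mitochondrial maximum of 10% gave 0.27 for the sum. G1 cells alone gave 0.38 for the members with 15 higher, class medians of 0.61, 0.29, -0.0449 and 0.70, and 0.45 for the sum. S cells alone gave 5 members lower, 0.49 for cathepsins, 0.29 for V-ATPase and 0.25 for the sum, and G2M cells alone gave 0.12 for the members, 0.37, 0.29 and 0.23. Subtracting the intron trend gave 0.42 for the members with 14 higher, and 0.76, 0.53 and 0.062 for cathepsins, hydrolases and membrane proteins. A further alternative left out, in each library, the cluster with the highest level of 8 genes the study names for its cluster 5. This removed SP11 cluster 5 (2093 CPM of these genes) and control cluster 1 (228 cells). Control cluster 1, led by histone genes, was barely above control cluster 0 in these genes (83.8 and 76.7 CPM), so unlike cells were removed. The values were 0.082 for the members, 0.40 for cathepsins, -0.28 for membrane proteins and 0.25 for the sum. Of the alternatives chosen after seeing the data, leaving out SP11 cluster 5 alone gave 0.24 for the sum, and G1 cells without it gave -0.27 for membrane proteins and 0.26 for the sum. The other 101 values for the list and its classes stayed within counting error or within 1.5 times the count, and of the log2 ratios of single members 461 stayed within counting error and 202 moved beyond it. Of their shares of cells 232 moved and 2 did not under other thinning depths, as a share depends on the depth kept. Depth limited CD68, LIPA, GAA and SCARB2 most, and a single library per group left the spread between cultures unknown.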
